A study of Mus musculus with 2 samples.

Results

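The Hox genes encode transcription factors with a homeodomain that give cells their position along the head-to-tail axis of the embryo. In the mouse they lie in 4 clusters, Hoxa, Hoxb, Hoxc and Hoxd, in which all genes are read in the same direction and genes of the same number, the paralogues, descend from 1 ancestral gene. Genes with low numbers act towards the head and those with high numbers towards the tail, and outside their domain the clusters are kept silent by Polycomb complexes and opened by Trithorax (MLL) complexes. In adult blood formation, Hox genes of the middle of the Hoxa and Hoxb clusters are known from stem and progenitor cells and are lowered as lymphocytes and myeloid cells mature. The genes were chosen by symbol from GENCODE vM21 on mm10: 39 of 21951 protein-coding genes start with Hoxa, Hoxb, Hoxc or Hoxd and a digit, of which 11 lie in Hoxa, 10 in Hoxb, 9 in Hoxc and 9 in Hoxd.

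The study set out to measure accessible chromatin in nuclei from formalin-fixed paraffin-embedded (FFPE) tissue with scFFPE-ATAC, in which barcoded Tn5 transposase cuts and tags open DNA. Peaks of 2 libraries of mouse spleen were analysed here, 1 made without density gradient centrifugation, the step that separates nuclei from debris, and 1 made in a 50 µL reaction system. Per the methods, tissues came from C57BL/6J mice of 8 weeks (of both sexes over the study, with no treatment named), were fixed for 16 h in formalin and were sampled as cores of 1 mm. Neither the reaction volume of the first library nor the use of a gradient for the second is given in its label, and how many mice went into either is not given in the sources used here. Each condition had 1 library, so no test between them was possible, and every difference between them is also a difference between 2 libraries.

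The library without gradient held 25343 peaks covering 8.81 Mb and the 50 µL library 89382 peaks covering 38.0 Mb. The files hold no reads and no cells, so the depth is unknown, and a gene without a peak was not detected as open at that depth. A promoter peak means a peak within 1 kb of an annotated transcription start site (TSS). In the 50 µL library it was present at 8 of 8 B cell, 7 of 8 T cell and 6 of 8 macrophage and myeloid markers. Erythroid markers had one at 4 of 6 genes and stromal and endothelial markers at 4 of 8, against 1 of 8 markers of other tissues (Ckm). Of all protein-coding genes 56.6% had one in that library. Among the spleen lists, only the exact interval of the B cell share (63.1% to 100.0%) lay above 56.6%. The intervals of the other spleen lists held it, and the stromal and endothelial share (50.0%) was below it. The marker check was thus clear for B cells only. Without gradient the same lists had 3, 2, 1, 1 and 2 genes with a peak, against 1 of 8 for other tissues (again Ckm). The shares of the spleen lists, 12.5% to 37.5%, were all below the 43.6% of all protein-coding genes, so the marker check was weak there. Which cells of the spleen gave a Hox peak cannot be read from lists called over whole libraries, and fewer open cells cannot be told apart from less open DNA per cell.

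Few Hox genes had an open promoter. Of those that did, 6 of 6 without gradient and 10 of 13 in the 50 µL library lay in Hoxa and Hoxb, which hold 11 and 10 of the 39 Hox genes. With the 50 µL list cut to the length of the other, described below, Hoxa, Hoxb and Hoxc had 2 genes each. Without gradient, 6 of 39 Hox genes had a promoter peak (15.4%, exact 95% interval 5.86% to 30.5%), where 43.6% of all protein-coding genes had one. In the 50 µL library 13 of 39 had one (33.3%, 19.1% to 50.2%), against 56.6% of all protein-coding genes. Both intervals ended below the share of all genes. They were computed by the Clopper-Pearson method and hold counting error alone, and neighbours in a cluster can share a peak. The 6 genes found without gradient, Hoxa4, Hoxa7, Hoxa10, Hoxb4 and Hoxb5 among them, were all found again in the 50 µL library. That library added 7 genes, Hoxa3, Hoxa6, Hoxa9, Hoxb7, Hoxc5, Hoxc6 and Hoxc10. The other 26 genes had no promoter peak in either.

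The clusters differed in their counts. Hoxa had a promoter peak at 4 of 11 genes without gradient and at 7 of 11 (63.6%, 30.8% to 89.1%) in the 50 µL library. Hoxb had 2 and 3 of 10, and Hoxc had 0 and 3 of 9. Hoxd had 0 of 9 in both libraries, which allows a share of up to 33.6%. With the 50 µL list cut to its 25343 most significant peaks, the length of the other list, the counts were 2 of 11 in Hoxa, 2 of 10 in Hoxb, 2 of 9 in Hoxc and 0 of 9 in Hoxd. The intervals of the clusters overlapped in each library, so an order among them was not resolved at these numbers. By position, paralogues 4 to 8, of the middle of the clusters, had a promoter peak at 4 of 15 genes without gradient (26.7%, 7.79% to 55.1%) and 8 of 15 in the 50 µL library (53.3%, 26.6% to 78.7%). Paralogues 1 to 3 had 1 and 2 of 8, and paralogues 9 to 13 had 1 and 3 of 16 (18.8%, 4.05% to 45.6%, in the 50 µL library). The intervals of the position classes overlapped in each library, so an order among them was not resolved either. Those of paralogues 1 to 3 and 4 to 8 held the share of all protein-coding genes (43.6% and 56.6%), and those of paralogues 9 to 13 ended below it. At equal list length the 50 µL counts were 0 of 8, 5 of 15 and 1 of 16. No gene numbered 2, 8, 11, 12 or 13 had a promoter peak in either library. Numbers 4, 5, 6, 7 and 10 each had one at 2 genes in the 50 µL library, in 2 different clusters.

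**Figure D1:**
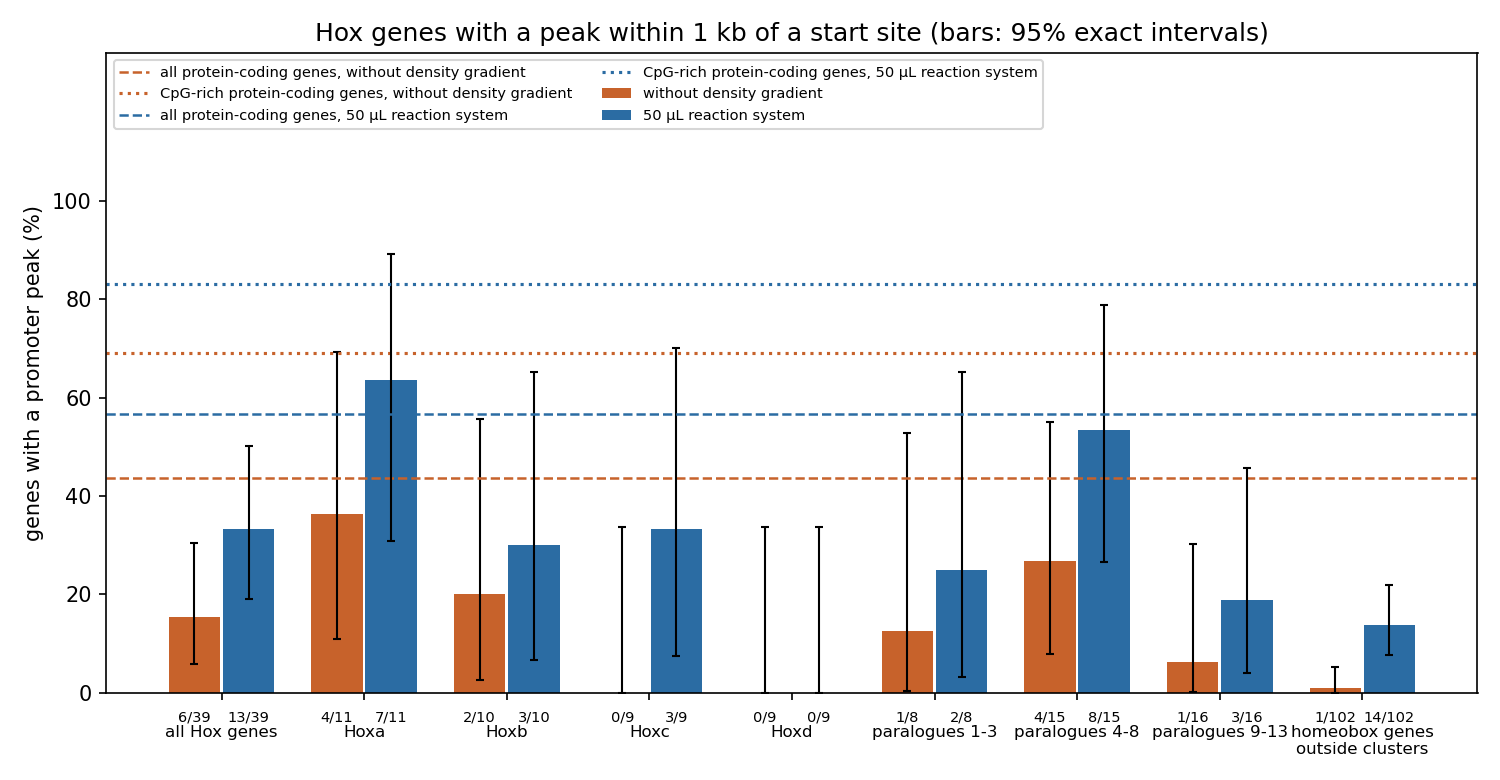
Share of genes with a promoter peak (y axis, %) for all 39 Hox genes, each cluster, each position class and the listed genes of homeobox and Pax families outside the clusters. Bars are without density gradient (orange) and in the 50 µL reaction system (blue), with counts under them. Error bars are exact 95% intervals, dashed lines mark all protein-coding genes (43.6% and 56.6%) and dotted lines CpG-rich ones (69.1% and 83.1%); the bar for all Hox genes ends below its dashed line in both libraries.

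Many Hox promoters lie in CpG islands, a class of promoter that is open in many cell types. In 1 kb around the 5′ end of the gene record, 20 of 39 Hox genes were CpG-rich (GC of at least 55% and a ratio of observed to expected CpG of at least 0.6), against 38.4% of all protein-coding genes. Yet without gradient only 3 of the 20 had a promoter peak (15.0%, 3.21% to 37.9%), where 69.1% of all CpG-rich protein-coding genes had one. It was 5 of 20 in the 50 µL library, against 83.1%. Of the 19 Hox genes that were not CpG-rich, 3 had a promoter peak without gradient and 8 in the 50 µL library. By this count CpG-rich Hox genes had a peak no more often than the others in either list, an order that turned when only the TSS next to the start codon was counted. All protein-coding genes, CpG-rich or not, had 43.6% and 56.6%. No share was computed over all genes that were not CpG-rich, so a shortfall of the 19 Hox genes against such genes is not shown. A list of genes of homeobox and Pax families outside the clusters, taken by symbol (Dlx, Lhx, Nkx and Pax among them), had a lower share than the Hox genes. The list leaves out the TALE cofactors described below, which encode homeodomain proteins too and had a promoter peak at 4 of 9 and 9 of 9 genes. Its low share thus holds for the listed families only. In the list, 1 of 102 genes had one without gradient (Pitx3, fold enrichment 5.32, −log10 q 7.73). In the 50 µL library 14 of 102 did (13.7%), led by Six5 with a −log10 q of 50.49, Lhx2 with 41.7 and Barhl1 with 28.73. Of the 66 CpG-rich genes among them, 0 and 4 had a promoter peak.

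Several Hox records in the annotation start far upstream of the coding exons, so a peak at any TSS need not be at the promoter of the coding transcript. When only the TSS of protein-coding transcripts nearest to the start codon was counted, a choice made after the data were seen, 4 of 39 Hox genes had a peak without gradient, against 36.8% of protein-coding genes, and 10 of 39 in the 50 µL library, against 49.0%. Hoxa7 and Hoxa10 were lost without gradient, and Hoxa3, Hoxa10 and Hoxc6 in the 50 µL library. At these start sites 22 of 39 Hox genes were CpG-rich, of which 3 and 7 had a peak, and of the other 17 genes 1 and 3 did.

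The peaks of both libraries lay inside the gene arrays. Within the spans from the first to the last Hox gene plus 20 kb on each side, 651.8 kb in all, the library without gradient had 11 peaks and the 50 µL library 33. All of them were inside the spans, and the 20 kb flanks held none. Per Mb this gave 16.9 peaks without gradient against 9.57 over the genome, and 50.6 against 33.7 in the 50 µL library. From 20 to 200 kb outside the spans there were 11.8 and 43.1 peaks per Mb. Hoxa stood above its surroundings in both libraries, with 57.0 peaks per Mb inside its span against 5.56 outside without gradient, and 123 against 22.2 in the 50 µL library. The other clusters did not in both: Hoxb had 23.0 against 16.7 without gradient and 69.0 against 75.0 in the 50 µL library, Hoxc 8.64 against 19.4 and 51.8 against 50.0, and Hoxd 0 against 5.56 and 20.7 against 25.0. Counts were 6 and 13 peaks in Hoxa, 4 and 12 in Hoxb, 1 and 6 in Hoxc and 0 and 2 in Hoxd. When the 50 µL list was cut to the 25343 most significant peaks, the clusters held 3, 3, 2 and 1, so Hoxa no longer led in counts. Per Mb inside its span it was still highest, with 28.5 against 2.78 outside. Hoxb then had 17.2 against 13.9, Hoxc 17.3 against 19.4 and Hoxd 10.3 against 5.56. These densities rest on 1 to 3 peaks per cluster.

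**Figure D2:**
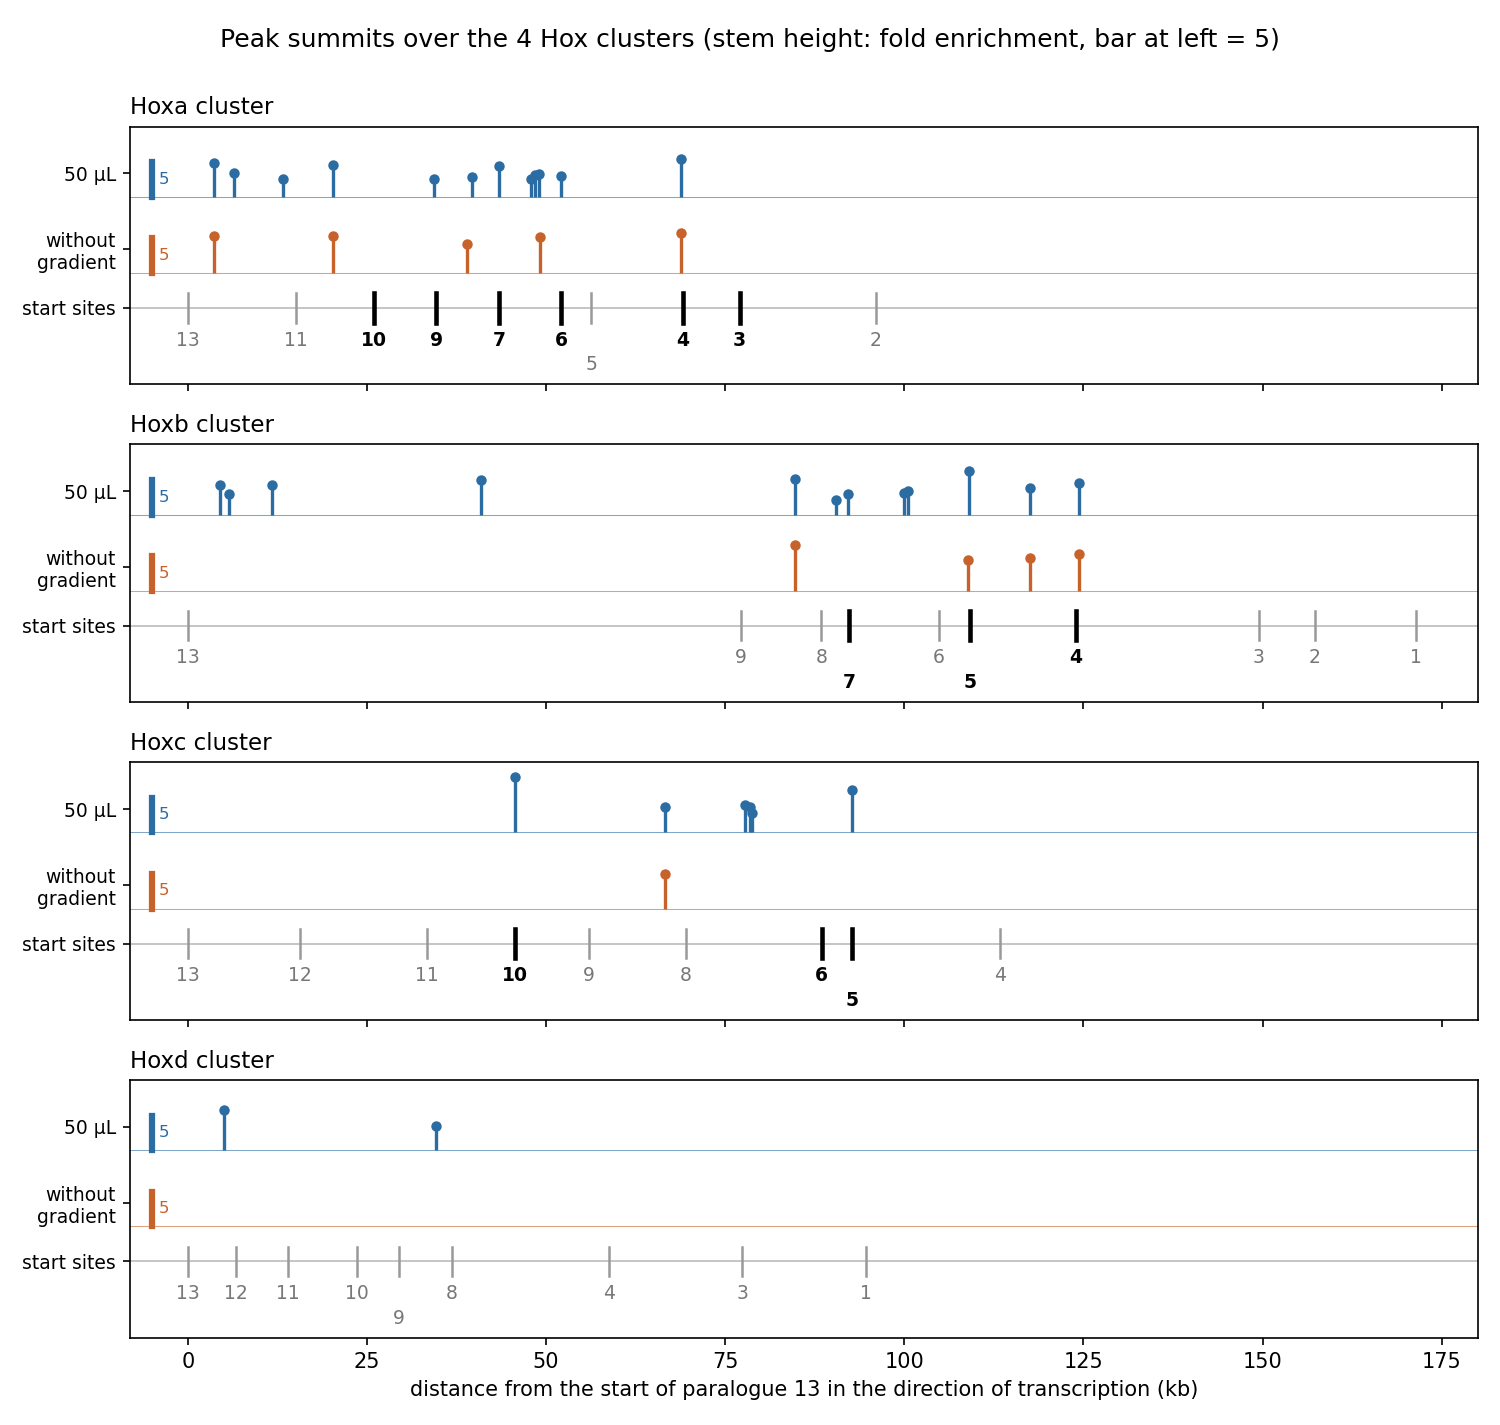
Peak summits over the 4 Hox clusters, by distance in kb from the start of paralogue 13 in the direction of transcription (x axis). Stems stand at summits of the 50 µL library (blue) and of the library without density gradient (orange), with the authors' fold enrichment as height against a bar for a fold enrichment of 5; ticks mark the TSS next to the start codon of each paralogue, in black and bold where the gene had a promoter peak in the 50 µL library. Only genes reported one by one and their peaks are drawn; Hoxd holds 0 and 2 summits.

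Of the 11 peaks found without gradient, 10 (90.9%) overlapped a peak of the 50 µL library, where 95.3% of all its peaks did. Of the 33 peaks of the 50 µL library, 10 (30.3%) overlapped one without gradient, where 26.3% of all its peaks did. Both shares were near those of the whole lists. The summits of the 10 pairs lay 2 to 183 bp apart. The exception was the peak at an upstream start of Hoxa7 (chr6:52221585-52221999), with a fold enrichment of 4.21 and a −log10 q of 6.20. In both libraries about as many cluster peaks were at a Hox promoter as away from one: 6 of 11 without gradient (54.5%), where 40.0% of all peaks were within 1 kb of a protein-coding TSS, and 17 of 33 in the 50 µL library (51.5%), where 22.3% were. Another 1 and 4 were at promoters of other genes only, and 4 and 12 at none. The cluster windows hold 39 Hox genes in 651.8 kb and so are denser in TSS than the genome. The promoter share that position alone would give there was not computed.

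Fold enrichment (pileup over local background, as MACS2 gave it) and −log10 q depend on the depth of a library, so peaks were ranked only within their own list. Without gradient the Hox peaks ranked low by −log10 q and in the middle by fold enrichment: 1 of 11 had a −log10 q above the median of its list (10.4) and 0 of 11 were in its top 10%, while 5 of 11 were above its median fold enrichment of 5.24. Their fold enrichments ran from 4.21 to 6.65. Of the 33 peaks in the 50 µL library, 16 were above the median of 13.1 and 2 in the top 10%, the promoters of Hoxc10 and Hoxb5. By fold enrichment 21 of 33 were above the median of 3.29, with a range from 2.18 to 8.05.

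**Figure D3:**
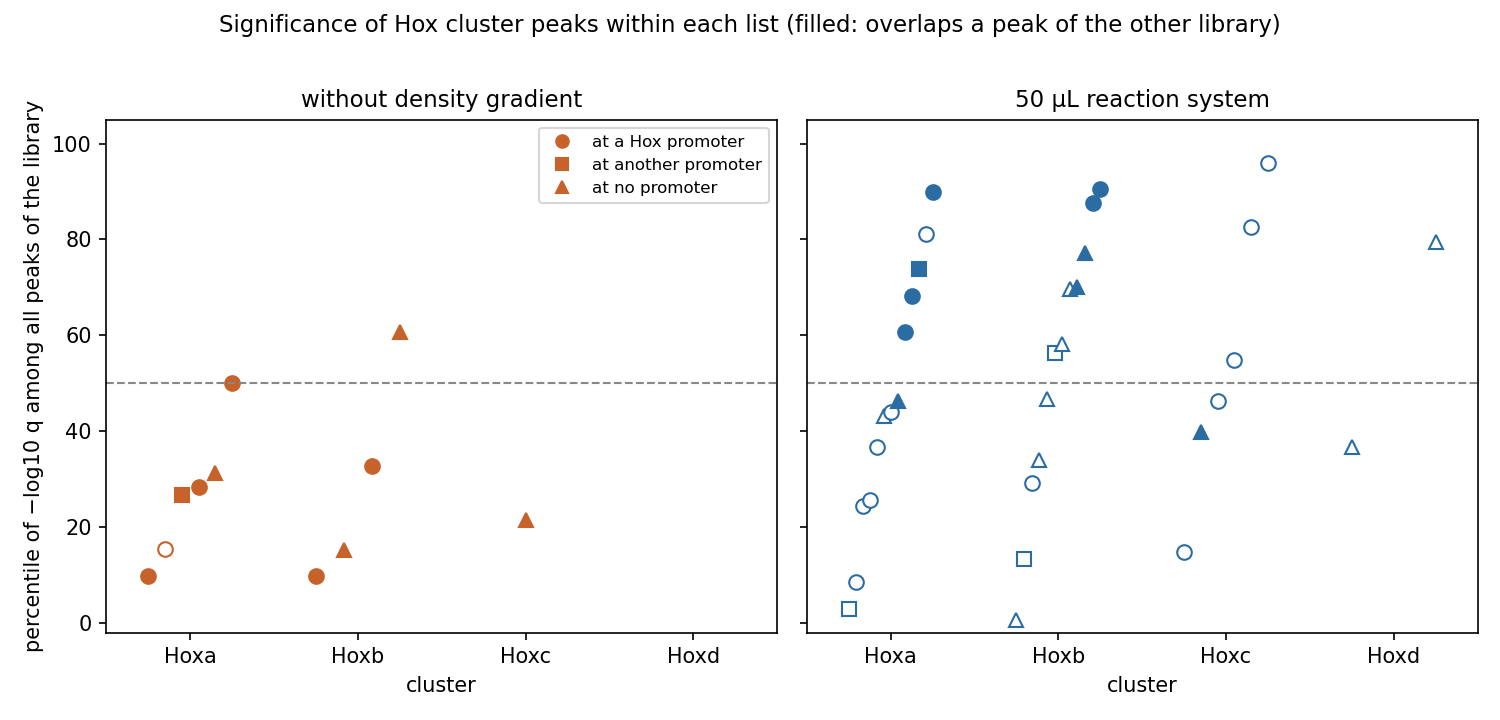
Percentile of the −log10 q of each Hox cluster peak among all peaks of its library (y axis), by cluster (x axis), without density gradient (left, 11 peaks) and in the 50 µL reaction system (right, 33 peaks). Shapes show the kind of site, filled symbols overlap a peak of the other library and the dashed line marks the median; 1 orange point lies above the median, and the blue points span the list up to the 95.9th percentile at Hoxc10.

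Hoxa3, a gene of the pharyngeal arches, had promoter peaks in the 50 µL library but not without gradient, at an upstream start between Hoxa6 and Hoxa7, 28498 bp from the TSS next to its start codon, with a fold enrichment of 3.11 for the stronger. Hoxa2, a gene of the hindbrain, had none.

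Hoxa4 had the most significant promoter peak of any Hox gene without gradient and of the Hoxa cluster in the 50 µL library. Its fold enrichments were 5.81 and 5.48 and its −log10 q 10.4 and 41.85, with summits 316 and 271 bp upstream of the TSS. The peak of the 50 µL library was 903 bp wide, the widest of all 33. Hoxb4, whose forced expression is known to expand blood stem cells, had summits 450 and 457 bp downstream of its TSS, in an untranslated exon, with fold enrichments of 5.29 and 4.54 and −log10 q of 8.34 and 38.18. Hoxc4 and Hoxd4 had no promoter peak, so the paralogues of number 4 were open in Hoxa and Hoxb only, as far as these lists reach.

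Hoxb5, a marker of long-term blood stem cells in mice, was among the weakest Hox peaks without gradient and the second most significant in the 50 µL library. Its fold enrichments were 4.52 and 6.38 and its −log10 q 5.41 and 42.93 (90.5th percentile of the 50 µL list), and its summits lay 183 bp apart, on either side of the 5′ end of the gene. Hoxc5 had 2 peaks in the 50 µL library. One stood at the TSS next to its start codon (chr15:103013675-103013968, fold enrichment 6.21, −log10 q 31.93), 942 bp from the miRNA gene Mir615. The other was the Hoxc10 peak, which also lies within 1 kb of an upstream start of Hoxc5. Hoxa5 had no promoter peak in either library.

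Hoxa6 had a weak peak in the 50 µL library only, 103 bp upstream of its TSS, with a fold enrichment of 2.94 and a −log10 q of 8.31. Hoxc6 had 3 peaks there, all at upstream starts, the most significant with a fold enrichment of 3.96 and a −log10 q of 14.48. Hoxa7 was called in both libraries but at different sites. Without gradient the summit was at an upstream start, 4401 bp from the TSS next to the start codon. In the 50 µL library the stronger of 2 peaks was 59 bp upstream of that TSS (fold enrichment 4.42, −log10 q 30.44), and the weaker (2.89, 10.09) was in an intron 664 bp downstream of the upstream start. Hoxb7 had a peak of 820 bp in the 50 µL library, with a fold enrichment of 2.96 and a −log10 q of 8.90. No paralogue of number 8 had a promoter peak.

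Hoxa9, the best known Hox gene of blood progenitors and of MLL leukaemia, had the least significant promoter peak of all 13 genes: a fold enrichment of 2.60 and a −log10 q of 5.59 in the 50 µL library, and no peak without gradient. Hoxa10, its neighbour in the same cells, was called in both libraries (fold enrichments 5.32 and 4.57, −log10 q 7.73 and 20.37), at the upstream end of its record, 5698 and 5680 bp from the TSS next to the start codon. Hoxc10, known from the hindlimb and lumbar region, had the most significant peak of all clusters, in the 50 µL library alone. It covered chr15:102966440-102966940 with its summit 66 bp upstream of the TSS, a fold enrichment of 8.05 and a −log10 q of 55.9, at the 95.9th percentile of the list, and no peak was called there without gradient. The genes numbered 11 to 13, which pattern limbs, digits and the tail end, had no promoter peak.

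Away from any annotated promoter, 4 sites were called in both libraries. The most significant of all 11 peaks without gradient lay between Hoxb9 and Hoxb8, 2885 bp upstream of Hoxb8 (fold enrichment 6.65, −log10 q 11.98), and the 50 µL library had 5.19 and 26.56 there (chr11:96278560-96279172). Another lay between Hoxb5 and Hoxb4, 6445 bp upstream of Hoxb4, with 4.79 and 6.16 without gradient and 3.84 and 21.4 in the 50 µL library. The third was in the Hoxa6 to Hoxa7 interval, inside the long Hoxa3 record (5.19 and 8.15, then 3.24 and 12.19). The fourth was between Hoxc9 and Hoxc8, the only peak of Hoxc without gradient (5.05 and 6.93, then 3.66 and 10.65). One more shared site, 3.6 to 3.7 kb downstream of the Hoxa13 start and next to the start of the transcript 9530018H14Rik, had 5.29 and 7.69 without gradient and 4.89 and 23.96 in the 50 µL library.

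The Hoxd cluster, known for its part in limbs and digits, had only 2 peaks, both in the 50 µL library and away from any promoter. One lay between Hoxd13 and Hoxd12 (chr2:74673135-74673404), 1738 bp upstream of Hoxd12, with a fold enrichment of 5.87 and a −log10 q of 28.73, the 79.5th percentile of the list. The other lay 1719 bp upstream of the first start of Hoxd8 (3.57 and 10.07). The nearest peak to Hoxd9 without gradient was 118596 bp from its TSS, so that library had no peak in the cluster or its flanks.

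The next sites show how the open sequences differed. The lines give 121 bp around the summit on the strand of the Hox genes, from the reference genome GRCm38 (mm10), with CpG dinucleotides in capitals. The first 2 are promoters open in both libraries, the third is the strongest site without gradient, the fourth is the strongest of the 50 µL library and the last is the Hoxd site.
Hoxa4 promoter, 50 µL summit (chr6:52191964-52192084, minus strand): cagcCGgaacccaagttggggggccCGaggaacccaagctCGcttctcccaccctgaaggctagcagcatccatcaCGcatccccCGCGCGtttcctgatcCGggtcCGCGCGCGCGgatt
Hoxb5 promoter, summit without gradient (chr11:96303177-96303297, plus strand): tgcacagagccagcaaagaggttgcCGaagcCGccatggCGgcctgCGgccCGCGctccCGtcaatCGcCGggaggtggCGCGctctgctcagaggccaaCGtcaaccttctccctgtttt
Hoxb9 to Hoxb8 interval, summit without gradient (chr11:96278960-96279080, plus strand): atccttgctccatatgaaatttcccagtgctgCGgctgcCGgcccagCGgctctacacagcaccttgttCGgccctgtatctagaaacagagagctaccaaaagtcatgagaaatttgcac
Hoxc10 promoter, 50 µL summit (chr15:102966670-102966790, plus strand): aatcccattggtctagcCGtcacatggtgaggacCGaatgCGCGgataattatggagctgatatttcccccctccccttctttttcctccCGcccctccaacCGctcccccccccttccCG
Hoxd13 to Hoxd12 interval, 50 µL summit (chr2:74673215-74673335, plus strand): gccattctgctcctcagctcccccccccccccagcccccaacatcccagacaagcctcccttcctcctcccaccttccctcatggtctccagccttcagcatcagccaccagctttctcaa
These stretches held 13, 12, 4, 7 and 0 CpG, in that order. The Hoxd window was pyrimidine-rich, with a run of C, and its 200 bp had a GC content of 57.0% at an observed to expected CpG ratio of only 0.24. A run of C was not particular to it: the Hoxc10 stretch above held one too, as did the window at the Hoxc5 start codon TSS. Over all Hox peaks, the 200 bp around summits had a median GC content of 58.5% without gradient (range 44.0% to 66.0%), against 51.5% for all peaks of that library, and 55.0% (33.5% to 70.0%) against 46.5% in the 50 µL library. The median CpG ratio was 0.74 against 0.367, and 0.56 against 0.234. Repeats took 5.27% and 11.3% of the bases, against 10.8% and 24.5% over all peaks. In the 50 µL library 19 of 33 windows held repeat bases, among them 31.5% of the Hoxd13 to Hoxd12 window and 34.5% of the window at the Hoxc5 start codon TSS.

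Motifs were searched on both strands in the 200 bp around each summit: CTCF by its consensus, HOX-PBX (TGATTNAT), MEIS (TGACAG), RUNX (TGTGGTTT), PU.1 (GAGGAAGT) and, as the letters AGATAAG, the motif of the GATA factors. CTCF marks boundaries within Hox clusters, HOX-PBX and MEIS are sites of Hox proteins and their partners, and the last 3 belong to factors of blood cells. The CTCF consensus was at 0 of 11 summits without gradient, against 7.94% of all peaks, and 0 of 33 (allowing up to 10.6%) in the 50 µL library, against 2.68%. With 1 mismatch allowed, an alternative added after the data were seen, 3 and 3 summits had it, against 21.5% and 8.56% of all peaks. MEIS was at 2 of 11 summits (14.2% of all peaks) and 5 of 33 (13.7%). GATA was at 0 of 11 (1.80%) and 3 of 33 (9.09%, 1.92% to 24.3%, where 2.43% of all peaks had it). HOX-PBX was found once, at Hoxa9 in the 50 µL library. RUNX was at 0 and 1 summits, and PU.1 at 1 and 1. In these 200 bp windows the interval of each share at Hox summits held the share over all peaks, for all 6 motifs in both libraries. In 400 bp windows this was also so, except for GATA in the 50 µL library, with 5 of 33 (15.2%, 5.11% to 31.9%) against 4.97% of all peaks.

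Some sites away from Hox promoters held more than 1 of these matches, shown as 200 bp around the 50 µL summit on the strand of the Hox genes in GRCm38, with matches in capitals. The first has MEIS 2 times and was open in both libraries, the second has PU.1 and MEIS, and the third, in an intron of Hoxb6, has MEIS, GATA and RUNX.
Hoxa13 downstream site (chr6:52257141-52257340, minus strand): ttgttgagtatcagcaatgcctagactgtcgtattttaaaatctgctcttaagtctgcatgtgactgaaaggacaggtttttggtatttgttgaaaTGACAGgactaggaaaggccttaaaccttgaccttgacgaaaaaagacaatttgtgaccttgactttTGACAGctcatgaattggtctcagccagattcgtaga
Hoxb13 downstream site (chr11:96206000-96206199, plus strand): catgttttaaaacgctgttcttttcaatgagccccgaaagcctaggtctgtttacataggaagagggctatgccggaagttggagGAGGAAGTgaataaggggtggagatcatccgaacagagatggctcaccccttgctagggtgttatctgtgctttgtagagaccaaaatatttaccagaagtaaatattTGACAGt
Hoxb6 intron (chr11:96294190-96294389, plus strand): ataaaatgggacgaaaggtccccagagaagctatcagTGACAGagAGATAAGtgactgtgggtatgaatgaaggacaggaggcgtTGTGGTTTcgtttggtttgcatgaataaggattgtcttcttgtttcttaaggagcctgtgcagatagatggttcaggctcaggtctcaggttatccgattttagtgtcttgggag
The peaks behind them had fold enrichments of 4.89, 4.34 and 3.10 and −log10 q of 23.96, 15.64 and 9.64. The MEIS and GATA matches at the Hoxb6 site start at positions 38 and 46 of the stretch and the RUNX match at position 86. A match to these letters describes the sequence and does not show that a factor was bound.

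The cluster windows also hold 53 other annotated genes, of which 3 had a promoter peak without gradient and 11 in the 50 µL library. Hottip, the noncoding gene at the Hoxa13 end, Hotair in Hoxc and Evx2, the homeobox gene beside Hoxd13, had none. Of 7 miRNA genes, 0 and 1 had a peak within 1 kb, the one being Mir615. Mir10a, between Hoxb5 and Hoxb4, was 1394 and 1230 bp from the nearest peak, while Mir10b, Mir196b, Mir196a-1 and Mir196a-2, which lie in the clusters too, had theirs further away.

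Cofactors, activators and silencers of Hox genes had promoter peaks at higher shares than the Hox genes themselves. Their exact intervals lay above that of the Hox genes for Polycomb genes in both libraries, for activators without gradient and for TALE cofactors in the 50 µL library, and overlapped it otherwise. Set beside all protein-coding genes (43.6% and 56.6%), the intervals of the activators held that share in both libraries, as did that of the TALE cofactors without gradient (44.4%). TALE cofactors, homeodomain proteins that bind DNA together with Hox proteins, had a promoter peak at 4 of 9 genes without gradient and 9 of 9 in the 50 µL library. Pbx4 and Pbx3 were among the 3 most significant in both, with −log10 q of 16.39 and 15.11 without gradient and 76.52 and 55.83 in the 50 µL library. Meis1 and Meis2 had peaks in the 50 µL library only. Of the activators (MLL complex, DOT1L, demethylases and Cdx factors), 9 and 11 of 15 had one. Mllt1, Psip1 and Rbbp5 led without gradient (−log10 q 22.12, 16.72 and 11.62) and Wdr5, Dot1l and Kdm6a in the 50 µL library (79.36, 58.28 and 54.91). Cdx1, Cdx2 and Cdx4, which switch on Hox genes in the embryo, had none.

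Of the Polycomb genes, whose products keep Hox clusters silent, 14 of 20 had a promoter peak without gradient (70.0%, 45.7% to 88.1%) and 18 of 20 in the 50 µL library (90.0%, 68.3% to 98.8%), above the 43.6% and 56.6% of all protein-coding genes. Both intervals held the share of all CpG-rich protein-coding genes, 69.1% and 83.1%. Mtf2, Eed and Ezh1 led without gradient (−log10 q 25.16, 24.77 and 23.96), and Pcgf1, Cbx8 and Eed in the 50 µL library (65.83, 63.93 and 59.52). Genes of retinoic acid, which induces Hox genes from the low-numbered end, had 3 and 6 of 12 (25.0% and 50.0%). Among its receptors, Rara led in both (−log10 q 10.07 and 31.01). Of 7 genes of the spleen primordium, 1 had a promoter peak in each library (14.3%). The 8 Hox genes of blood stem cells had 4 and 5 (50.0%, 15.7% to 84.3%, and 62.5%, 24.5% to 91.5%). The intervals of the retinoic acid, spleen primordium and blood stem cell lists held the share of all protein-coding genes in both libraries. All lists of cofactors and regulators were chosen with results of these data known, and at 7 to 20 genes their intervals are wide.

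**Figure D4:**
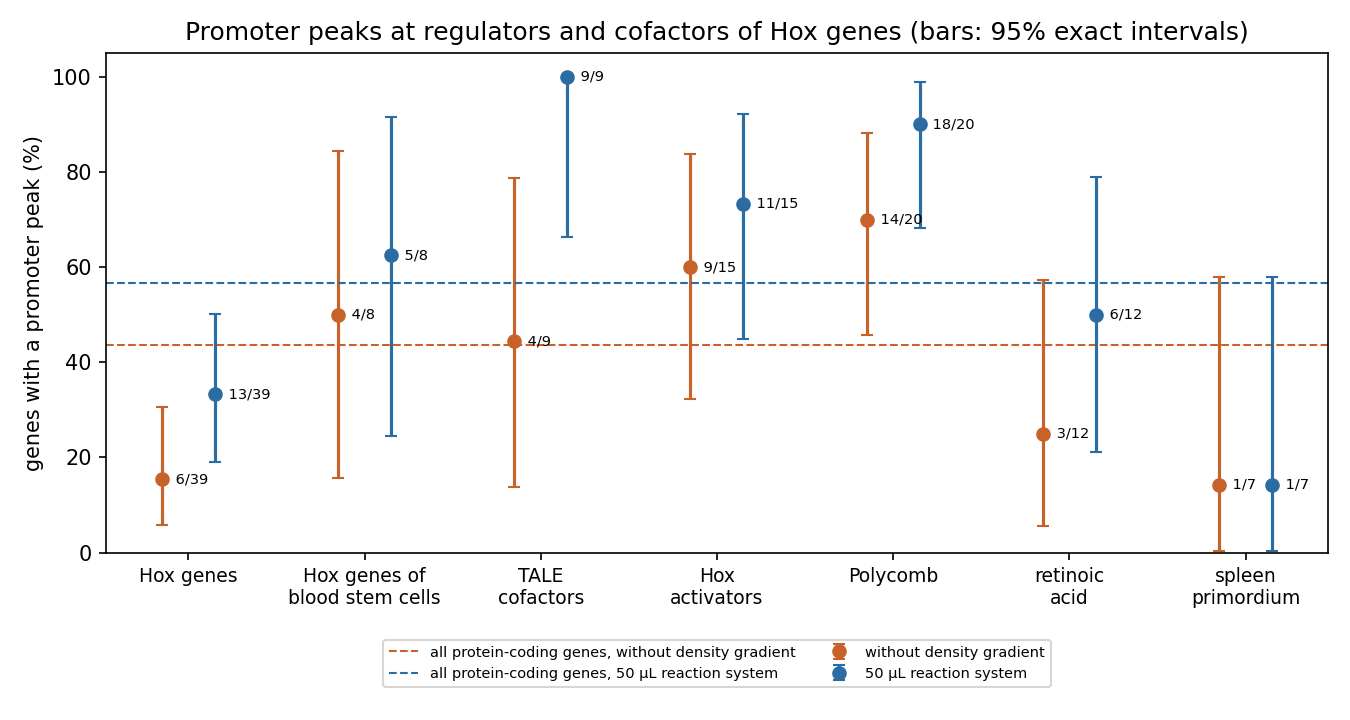
Share of genes with a promoter peak (y axis, %) for the 39 Hox genes, the 8 Hox genes of blood stem cells and lists of cofactors and regulators (x axis), without density gradient (orange) and in the 50 µL reaction system (blue). Points carry counts and exact 95% intervals and dashed lines mark all protein-coding genes; Polycomb genes reach 70.0% and 90.0%, the Hox genes 15.4% and 33.3%.

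Because the lists differ in length, the 50 µL peaks were also cut back by significance to 25343, as many as without gradient. Then 6 of 39 Hox genes had a promoter peak, against 45.2% of all protein-coding genes, the same number as without gradient but only in part the same genes. Hoxa4, Hoxa7, Hoxb4 and Hoxb5 were in both sets of 6, Hoxa10 was found without gradient but not in the shortened list, and Hoxc5 and Hoxc10 in the shortened list but not without gradient. In the cluster windows 9 peaks were left of 33, of which 5 overlapped a peak without gradient.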

How the data were processed

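Accessible chromatin of mouse FFPE spleen was measured by scFFPE-ATAC in 1 library without density gradient centrifugation and 1 library of a 50 µL reaction system. Per the methods, the authors used BWA v0.7.17 for alignment to mm10, samtools v1.17 for sorting, MACS2 v2.1.2 for peaks of each library (q-value 0.01, shift 0) and bedtools v2.30.0 to drop blacklisted regions. With a shift of 0 a summit may lie some bases from the Tn5 cut. The integer score in the deposited lists was not used. The fold enrichment, −log10 p and −log10 q are deposited as MACS2 gave them, and the summit is an offset from the peak start. Depth is unknown.

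Genes and TSS came from GENCODE vM21 on GRCm38, and sequences from the RefSeq copy of that assembly. A promoter peak lies within 1 kb of any annotated TSS, and 1 bp counted as overlap. In the 50 µL list, 166 peaks were on scaffolds. The Hox genes and all lists were chosen with earlier results of these data known. Some items are not reported here and enter counts only. Hox genes could be named, and from each list the 3 genes with the most significant promoter peak per library. Further list members were picked for mention with their values in view. With 1 library per condition no test was made. Shares have Clopper-Pearson 95% intervals, and alternatives were other windows, thresholds, overlaps and list lengths. Counting was tested on simulated data. Scripts ran in Python 3.11.15 with matplotlib 3.10.9, scipy 1.17.1, pandas 2.3.3 and numpy 2.4.6.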

Additional observations from a re-analysis of the deposited data

How the results depend on the processing

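With a 3 kb window, the count of Hox genes with a promoter peak went from 6 to 10 without gradient and from 13 to 19 in the 50 µL library. In the 50 µL library the count of 13 became 8 at a fold enrichment of at least 4 and 6 at equal list length. For the 3 kb window and the fold enrichment limit no share over all protein-coding genes was computed. Whether the Hox share stayed below that of all genes there is thus not shown. Windows of span plus 100 kb held 18 and 53 peaks. In the 50 µL library the 33 peaks became 14 at a fold enrichment of at least 4 and 9 at equal list length. The 10 shared peaks became 5 in each list under a reciprocal overlap of 50%, and 5 in each at equal list length. With 1 mismatch allowed, CTCF matches went from 0 to 3 in both libraries. In 400 bp windows GATA matches went from 0 to 2 without gradient, and from 3 to 5 in the 50 µL library, where MEIS went from 5 to 8 and PU.1 from 1 to 2. MEIS without gradient went from 2 to 3, and CTCF, HOX-PBX and RUNX counts stayed as they were. The other alternatives, a 500 bp window, summits or gene ends alone, spans alone, a −log10 q above 5 and the TSS next to the start codon, moved the gene and peak counts by at most 1.5 times. No paired analysis was possible because each condition had 1 library, and no library could be left out for the same reason. The unknown depth limits every absence of a peak.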
